A study of Mus musculus with 6 samples.

Results

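Neurexins, neuroligins and LRRTM proteins are adhesion molecules that meet across the synaptic cleft, and 9 of their genes were followed here in the mouse cerebellum: the neurexins Nrxn2 and Nrxn3, the neuroligins Nlgn1, Nlgn2 and Nlgn3, and Lrrtm1, Lrrtm2, Lrrtm3 and Lrrtm4. A gene was taken from the array rows whose annotation names that gene and no other, and each of the 9 genes had exactly 1 such row. They are 9 of the 17858 genes tested. The samples were cerebellum of C57BL/6 mice, for which the labels name no treatment or altered gene, at 2 ages, 6 weeks after birth (6wk, n = 3 arrays) and postnatal day 7 (P7, n = 3 arrays), and the series set out to relate expression to changes in 5-hydroxymethylcytosine, an oxidised form of methylated cytosine. Ribosomal RNA was removed from the total RNA, and biotin-labelled cDNA was measured on mouse exon arrays from Affymetrix. Nothing in the labels ties a replicate to a separate animal, so each p-value measures the spread between these samples, which may be partly technical.

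Neurexins sit on the presynaptic membrane, where extracellular LNS domains bind postsynaptic partners and the cytoplasmic tail binds scaffold proteins. Each neurexin gene makes long alpha and short beta forms from separate promoters, and alternative splicing of these transcripts sets which partners bind. Neuroligins and LRRTMs are postsynaptic partners of neurexins, and in the cerebellum a further partner, the secreted cerebellin Cbln1, joins neurexins of granule cell axons to the receptor GluD2 on Purkinje cells. An array value here averages over the probe sets of a gene, so alpha and beta forms and splice variants were not measured apart.

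The arrays did not form tight groups at P7. The mean log2 level of 9 mature granule neuron markers was 10.86 to 11.06 in the 6wk arrays, against 10.33, 7.28 and 9.69 in P7 replicates 1, 2 and 3. The mean of 7 markers of midbrain and brainstem monoamine neurons, cells that lie outside the cerebellum, was 6.93 to 7.68 in the 6wk arrays, against 6.81, 9.53 and 8.98 in P7 replicates 1, 2 and 3. Markers of Purkinje cells (6 genes) averaged 10.23 to 10.51 at 6wk and 7.86 to 9.74 at P7, and those of GABAergic interneurons (7 genes) 9.11 to 9.59 at 6wk and 9.30 to 9.59 at P7. The other lists moved with age or array too. Markers of dividing cells and granule neuron progenitors (7 genes) averaged 6.37 to 6.42 in the 6wk arrays, against 9.25, 7.49 and 8.81 in P7 replicates 1, 2 and 3, with 4 called lower at 6wk. Those of Bergmann glia and astrocytes (7 genes) averaged 9.66 to 9.71 at 6wk and 9.73 to 10.47 at P7, with 4 called lower, and those of the oligodendrocyte lineage (6 genes) 8.79 to 9.14 at 6wk and 9.37 to 9.63 at P7, with 3 called lower. Microglial markers (4 genes) averaged 7.63 to 7.71 at 6wk and 7.81 to 8.18 at P7, with 0 called. No marker read 0 in any array. P7 replicate 2 thus stood apart with the lowest granule and Purkinje markers and the highest monoamine markers. The results for the adhesion genes are given with and without it. P7 replicate 3 also had monoamine markers above all 6wk arrays, so the fits without replicate 2 still hold such an array. Differences from P7 replicate 1 alone are given in the section on processing. In such bulk tissue, fewer cells of a type and less RNA per cell cannot be told apart.

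Of the 9 adhesion genes, 1 passed the limma test between the ages, Lrrtm1, which was lower at 6wk, and 8 did not pass at a Benjamini-Hochberg adjusted p under 0.05. Over all genes tested, 21.7% passed, 13.4% lower and 8.26% higher at 6wk. Lower genes thus made up 61.9% of all calls, but 43.5% with array medians set equal and 45.7% after quantile normalization. The median log2 difference, 6wk minus P7, was -0.34 over the 9 genes and -0.05 over all genes. The values of the 2 ages did not overlap in 6 of the 9 genes, 5 lower and 1 higher at 6wk, whereas 42.1% of all genes showed no overlap, 25.7% lower and 16.4% higher. Without P7 replicate 2, 2 of the 9 genes passed, Lrrtm1 and Nlgn3, both lower at 6wk, where 26.8% of all genes were called, 17.2% lower and 9.56% higher.

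**Figure D1:**
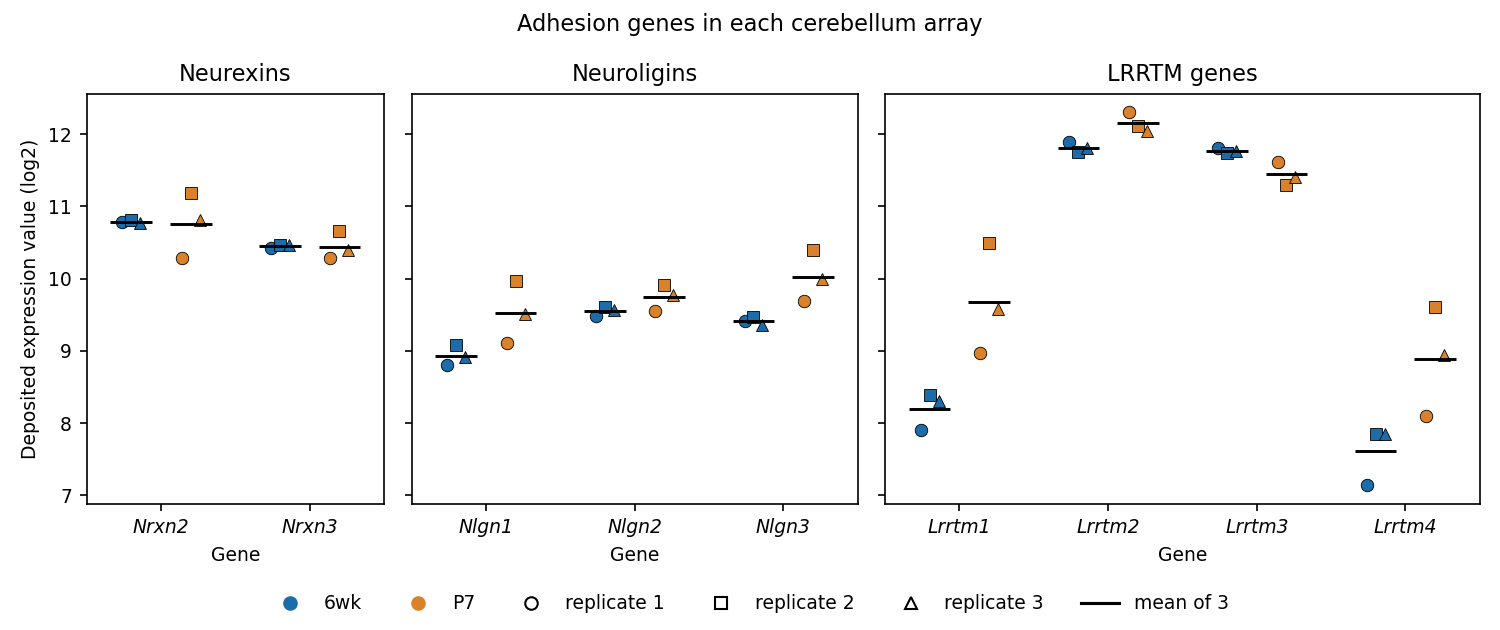
Deposited log2 expression value (vertical axis) of each of the 9 genes in every array, with 6wk (blue) left of P7 (orange), symbols for replicates 1 to 3 and a bar for the mean of 3 arrays. The 6wk arrays lie close together for most genes, while P7 replicate 2 is highest for Nrxn2, Nrxn3, the 3 neuroligins, Lrrtm1 and Lrrtm4.

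Among the presynaptic members, the mean levels of the 2 neurexin genes were nearly the same at both ages, but the P7 arrays spread around them. Nrxn2 read 10.79, 10.81 and 10.77 in the 6wk arrays, against 10.29, 11.18 and 10.82 in the P7 arrays. The 6wk values of Nrxn2 lie inside the P7 range, with P7 replicate 1 below and P7 replicates 2 and 3 above all 6wk arrays. Its means were 10.79 ± 0.02 at 6wk and 10.76 ± 0.45 at P7 (SD, n = 3 each), a log2 difference of 0.03 (95% interval -0.49 to 0.54, limma adjusted p = 0.950). The sign followed the P7 array chosen: the difference was 0.23 without P7 replicate 2 (adjusted p = 0.335) and -0.21 without P7 replicate 1 (adjusted p = 0.274). Against P7 replicate 1 alone it was 0.50 (adjusted p = 0.0255), a fit in which only the 6wk arrays give a spread.

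Nrxn3 read 10.43, 10.46 and 10.47 in the 6wk arrays, against 10.29, 10.65 and 10.39 in the P7 arrays. Here too the 6wk values fall between the P7 values, and the ages overlap. The log2 difference was 0.01 (95% interval -0.26 to 0.28, limma adjusted p = 0.967), so a change of either neurexin gene by more than these intervals was not seen with all arrays. The difference of Nrxn3 stayed between -0.07 and 0.11 when single arrays were left out, with the negative values without P7 replicate 1, P7 replicate 3 or 6wk replicate 3.

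On the postsynaptic side, Nlgn1 and Nlgn3 were lower in every 6wk array than in any P7 array, and Nlgn2 overlapped. Nlgn1, the neuroligin found mainly at excitatory synapses, read 8.80, 9.08 and 8.92 in the 6wk arrays, against 9.11, 9.97 and 9.51 in the P7 arrays. The highest 6wk array lay 0.03 below the lowest P7 array, so the groups barely separate. The log2 difference was -0.60 (SE 0.22, 95% interval -1.12 to -0.07) and did not pass over all genes (limma adjusted p = 0.102). It was -0.38 without P7 replicate 2 (adjusted p = 0.124) and -0.81 without P7 replicate 1, the only fit leaving out an array in which it passed (adjusted p = 0.0208).

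Nlgn3, which occurs at excitatory and inhibitory synapses, read 9.42, 9.47 and 9.35 in the 6wk arrays, against 9.68, 10.40 and 9.995 in the P7 arrays. All 6wk values lay at least 0.21 below the P7 values. The log2 difference was -0.61 (SE 0.18, 95% interval -1.05 to -0.18, limma adjusted p = 0.0573), or 1.53-fold lower at 6wk, just outside the threshold. Without P7 replicate 2 it was smaller, -0.42, and passed (adjusted p = 0.0455), as it did without P7 replicate 1 (-0.78, adjusted p = 0.0141). With P7 replicate 3 or any single 6wk array left out it did not pass (adjusted p of 0.129 to 0.167). Against P7 replicate 1 alone the difference was -0.27. Nlgn3 is X-linked, and the Y-linked genes Eif2s3y and Kdm5d, named after their values were seen, read 10.49 and 8.13 in 6wk replicate 1 but at most 5.66 and 6.61 in the other arrays. On these values the 6wk arrays mix sexes, and 6wk replicate 1 was not a technical repeat of 6wk replicates 2 and 3. The Nlgn3 value of 6wk replicate 1 lay between those of 6wk replicates 2 and 3.

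Nlgn2, the neuroligin of inhibitory synapses, where it binds the scaffold gephyrin, read 9.49, 9.60 and 9.56 in the 6wk arrays, against 9.55, 9.91 and 9.78 in the P7 arrays. P7 replicate 1 falls among the 6wk values. The log2 difference was -0.20 (95% interval -0.47 to 0.08, limma adjusted p = 0.271), and -0.11 without P7 replicate 2 (adjusted p = 0.471). Gphn, the gephyrin gene, which was taken from the list of scaffolds after its value was seen, differed by 0.09 (adjusted p = 0.503).

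**Figure D2:**
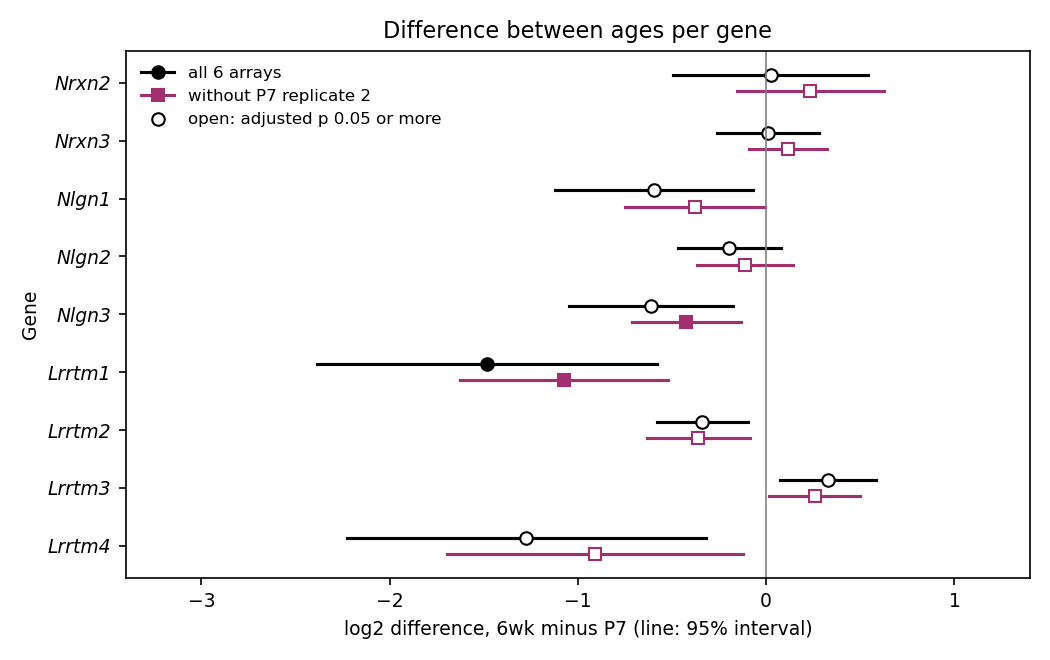
Log2 difference, 6wk minus P7 (horizontal axis), of each gene with its 95% interval, from all 6 arrays (black circles) and without P7 replicate 2 (purple squares), where filled symbols passed the limma test at an adjusted p under 0.05. Lrrtm1 and Lrrtm4 have the most negative differences, -1.48 and -1.27, Lrrtm3 is positive at 0.33, and the 2 neurexin genes lie at 0.03 and 0.01.

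The LRRTM genes, which encode leucine-rich repeat proteins of the postsynaptic membrane, did not share a direction. Lrrtm1, whose protein binds neurexins at excitatory synapses, read 7.90, 8.40 and 8.31 in the 6wk arrays, against 8.97, 10.50 and 9.58 in the P7 arrays. Every 6wk array was below every P7 array, by at least 0.57. Lrrtm1 fell to 8.20 ± 0.26 at 6wk, against 9.68 ± 0.77 at P7 (SD, n = 3 each), which is 2.79-fold lower at 6wk (difference -1.48 on the log2 scale, SE 0.38, limma adjusted p = 0.0359). The P7 arrays differed from each other by as much as the ages did: P7 replicate 2 was 1.53 above P7 replicate 1. Without P7 replicate 2 the difference was -1.07 and passed (adjusted p = 0.0185), and against P7 replicate 1 alone it was -0.77 and did not (adjusted p = 0.0744). With P7 replicate 3 or any single 6wk array left out, the difference lay between -1.58 and -1.33 and no longer passed (adjusted p of 0.0867 to 0.120).

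Lrrtm4, whose protein binds heparan sulfate chains of glypicans and neurexins, read 7.14, 7.84 and 7.86 in the 6wk arrays, against 8.10, 9.61 and 8.95 in the P7 arrays. The groups did not overlap, and within each age replicate 1 was the lowest array. The log2 difference was -1.27 (SE 0.40, 95% interval -2.23 to -0.32, limma adjusted p = 0.0674), -0.91 without P7 replicate 2 (adjusted p = 0.0882) and -1.67 without P7 replicate 1 (adjusted p = 0.0139). The 6wk values lie near 7.54 to 7.63, the level that 95% of 837 olfactory receptor genes stay under in the 6wk arrays, genes not known for expression in cerebellum, so the size of this difference is uncertain. The same level was 7.45 to 7.61 in the P7 arrays, and it is called the olfactory receptor level here.

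Lrrtm2, another neurexin-binding LRRTM of excitatory synapses, read 11.89, 11.75 and 11.81 in the 6wk arrays, against 12.31, 12.11 and 12.05 in the P7 arrays. The groups were apart by 0.15, and here P7 replicate 1 rather than replicate 2 was the highest. The log2 difference of -0.34 (SE 0.10, 95% interval -0.58 to -0.10) did not pass over all genes (limma adjusted p = 0.0577), and it was -0.36 without P7 replicate 2 (adjusted p = 0.0616).

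Lrrtm3, a further LRRTM, was the member with the opposite sign among those whose ages separated. It read 11.81, 11.75 and 11.76 in the 6wk arrays, against 11.62, 11.30 and 11.41 in the P7 arrays. All 6wk values lay above all P7 values, and P7 replicate 2, the highest P7 array for 7 of the other members, was the lowest here. The log2 difference was 0.33 (SE 0.11, 95% interval 0.08 to 0.59, limma adjusted p = 0.0720), and 0.26 without P7 replicate 2 (adjusted p = 0.109). It passed after the arrays were centred on their medians (0.44, adjusted p = 0.0282) and after quantile normalization (0.42, adjusted p = 0.0302). Centring moved the median difference of all genes by 0.11 on the log2 scale, and the differences of all 9 members kept their sign under both scalings.

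Members of a family were also set against each other within each array. Over the 10 pairs of members of 1 family, the within-array log2 difference of the pair was compared between the ages with an exact permutation test, two-sided, for which 3 arrays against 3 cannot give a p below 0.10. The values of the ages did not overlap in 6 of the 10 pairs, each with an exact p = 0.10 (0.167 adjusted over the 10 pairs), so none could pass. These pairs reuse the same genes, and how often other pairs of genes separate by age was not tested. Lrrtm2 minus Lrrtm3 was 0.04 ± 0.04 at 6wk and 0.71 ± 0.09 at P7 (SD, n = 3 each), a change of -0.67 that stayed between -0.71 and -0.62 with any array left out. Lrrtm1 minus Lrrtm3 changed by -1.81 and Lrrtm3 minus Lrrtm4 by 1.60, with values of -1.33 and 1.17 without P7 replicate 2. Nlgn1 minus Nlgn3 changed by 0.02 with overlapping ages (exact permutation p = 0.90), while Nlgn1 minus Nlgn2 changed by -0.40 and Nlgn2 minus Nlgn3 by 0.42. Lrrtm1 minus Lrrtm4 changed by -0.21 (exact permutation p = 0.20), with overlapping ages.

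The P7 spread of the members followed a common order of arrays. In 7 of the 9 genes, Nrxn2, Nrxn3, Nlgn1, Nlgn2, Nlgn3, Lrrtm1 and Lrrtm4, P7 replicate 1 was lowest, replicate 3 between and replicate 2 highest, an order that 33.5% of all genes showed. Lrrtm3 had the reverse order, shown by 34.1% of all genes. The order was also that of all 7 monoamine neuron markers, all 4 microglial, 3 of 6 oligodendrocyte lineage, 3 of 7 GABAergic interneuron and 1 of 6 Purkinje cell markers, and of 0 of the granule neuron, dividing cell or Bergmann glia and astrocyte markers. Single markers are named here with their values known. The dopamine transporter gene Slc6a3 read 6.73, 7.09 and 6.92 in the 6wk arrays, against 6.78, 10.76 and 9.84 in P7 replicates 1, 2 and 3, so its P7 order is that of the 7 genes. Sst, the neuropeptide somatostatin, is 1 of the 3 interneuron markers with this order, while 2 others of that list had the reverse. It read 6.93, 8.87 and 8.51 in the 6wk arrays, against 8.70, 10.59 and 9.97 in the P7 arrays. Nrxn3, Nlgn1, Nlgn2, Lrrtm1 and Lrrtm4 share its P7 order and, like Sst, have their lowest 6wk value in replicate 1. Nrxn2 and Nlgn3 share the P7 order but have their lowest 6wk value in replicate 3. The granule neuron gene Gabra6 had the reverse P7 order, with 12.25, 11.91 and 11.88 in the 6wk arrays, against 10.56, 4.91 and 9.36 in the P7 arrays. The part of these cell type markers in the differences between ages was not tested. The median range within P7 was 0.72 over the 9 genes and 0.33 over all genes, and the median range within 6wk was 0.12 and 0.19.

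**Figure D3:**
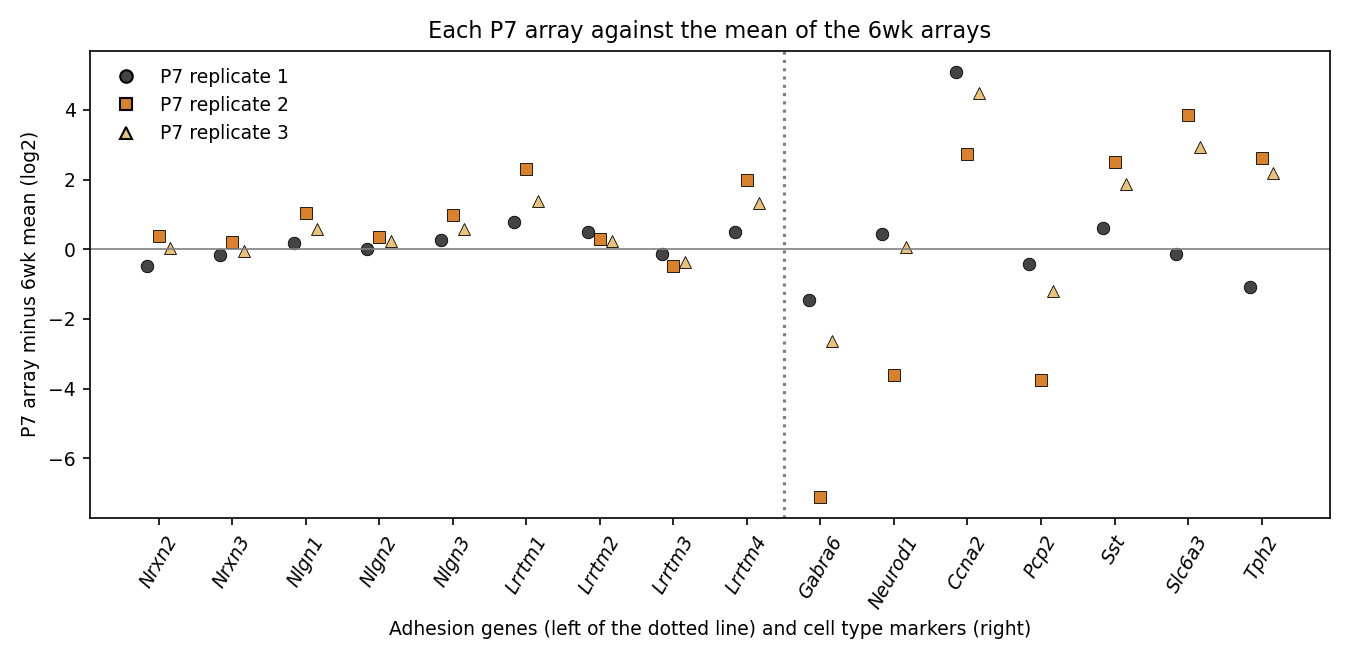
Value of each P7 array minus the mean of the 3 6wk arrays (log2, vertical axis) for the 9 adhesion genes, left of the dotted line, and for 7 cell type markers chosen with their values known, right of it. For 7 adhesion genes and for Slc6a3 and Sst, P7 replicate 2 lies above replicate 3 and replicate 1 lies lowest, while Gabra6, Neurod1 and Pcp2 have replicate 2 lowest and replicate 1 highest.

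Other genes traced the leading member of each family across the 6 arrays, as a description of arrays that differ in age and tissue markers alike. Lrrtm1 had its highest Pearson correlations with Tmem44 (0.9994), Cdkl4 (0.9991) and Gjd2 (0.9989), the last of which encodes a neuronal gap junction protein. Gjd2 read 7.77, 8.24 and 8.17 in the 6wk arrays, against 8.78, 9.999 and 9.20 in the P7 arrays. Nlgn3 was closest to Fstl5 (0.9993), Nptx2 (0.9992) and Fads3 (0.9975), where Nptx2 is a neuronal pentraxin, a secreted protein that gathers AMPA receptors. Nrxn2 was closest to Aifm2 (0.9979), Ncald (0.9954), a neuronal calcium sensor, and Lypd6 (0.9932). Some of these genes read low: Aifm2 lies under the olfactory receptor level in every array and Nptx2 in every 6wk array. Cdkl4 lies under it in every 6wk array and P7 replicate 1, and Tmem44 in 6wk replicate 1.

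The study is about modified cytosines, which lie mostly in CpG dinucleotides, so the start regions of 3 LRRTM genes whose differences had opposite signs are shown, with the CpG-rich start of Nlgn2 for contrast. Each sequence runs 5′ to 3′ on the gene's strand from 250 bases before to 50 after a RefSeq start (GRCm38.p6), with CG in capitals. There were 10 such windows for 6 of the 9 genes, and Nrxn2, Nlgn3 and Lrrtm2 had none shown here.
Lrrtm1 at chr6:77242227-77242526, + strand: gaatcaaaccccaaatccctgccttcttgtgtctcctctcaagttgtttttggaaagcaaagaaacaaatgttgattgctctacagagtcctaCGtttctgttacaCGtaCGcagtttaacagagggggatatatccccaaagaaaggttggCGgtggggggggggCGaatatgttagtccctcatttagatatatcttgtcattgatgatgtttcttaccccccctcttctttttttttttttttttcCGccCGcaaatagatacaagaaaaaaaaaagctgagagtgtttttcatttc
Lrrtm4 at chr6:80018627-80018926, + strand: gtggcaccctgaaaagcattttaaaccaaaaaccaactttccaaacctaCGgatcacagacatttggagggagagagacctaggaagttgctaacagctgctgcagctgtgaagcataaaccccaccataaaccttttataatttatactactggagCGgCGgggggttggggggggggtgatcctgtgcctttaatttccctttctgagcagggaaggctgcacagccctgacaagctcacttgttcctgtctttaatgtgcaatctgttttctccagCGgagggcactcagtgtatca
Lrrtm4, second start, at chr6:80019393-80019692, + strand: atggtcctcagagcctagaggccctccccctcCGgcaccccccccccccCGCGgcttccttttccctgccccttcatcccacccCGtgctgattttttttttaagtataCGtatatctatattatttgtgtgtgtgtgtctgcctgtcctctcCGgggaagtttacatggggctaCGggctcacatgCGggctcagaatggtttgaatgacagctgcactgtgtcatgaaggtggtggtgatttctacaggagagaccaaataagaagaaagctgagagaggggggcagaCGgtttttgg
Lrrtm3 at chr10:64090206-64090505, - strand: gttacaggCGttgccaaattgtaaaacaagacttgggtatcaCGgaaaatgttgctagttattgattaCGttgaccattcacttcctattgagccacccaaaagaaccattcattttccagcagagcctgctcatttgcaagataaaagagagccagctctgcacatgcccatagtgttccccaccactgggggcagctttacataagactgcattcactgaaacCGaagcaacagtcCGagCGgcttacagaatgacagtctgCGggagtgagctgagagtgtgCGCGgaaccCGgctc
Nlgn2 at chr11:69837735-69838034, - strand: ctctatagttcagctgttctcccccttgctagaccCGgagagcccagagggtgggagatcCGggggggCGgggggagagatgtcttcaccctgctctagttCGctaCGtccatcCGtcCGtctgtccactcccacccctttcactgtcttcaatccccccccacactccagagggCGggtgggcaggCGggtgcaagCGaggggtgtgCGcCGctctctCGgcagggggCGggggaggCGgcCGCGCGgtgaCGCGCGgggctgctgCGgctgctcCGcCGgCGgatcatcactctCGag
The Lrrtm1 window holds 7 CG, and 52.1% of 32851 such windows of all genes hold at least as many. The 2 Lrrtm4 windows hold 4 and 9 CG, reached by 68.6% and 45.8% of windows, and the Lrrtm3 window holds 10, reached by 43.5%. The Nlgn2 window holds 26 CG, a count that 16.9% of windows reach. The median window holds 7 CG, and the 4 LRRTM windows lie on both sides of it. The modification state of these bases was not analysed here.

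In the RefSeq gene table, 3 of the 4 LRRTM genes lie within the span of an alpha-catenin gene, which links cadherins to actin: Lrrtm1 within Ctnna2, Lrrtm2 within Ctnna1 and Lrrtm3 within Ctnna3. Ctnna2 fell to 8.75 ± 0.09 at 6wk, against 9.57 ± 0.27 at P7 (SD, n = 3 each), a log2 difference of -0.82 (limma adjusted p = 0.0113), beside the -1.48 of Lrrtm1. It no longer passed without P7 replicate 3, 6wk replicate 1 or 6wk replicate 3 (adjusted p of 0.0510 to 0.0517). Ctnna3 rose to 7.68 ± 0.03 at 6wk, against 6.30 ± 0.16 at P7, a log2 difference of 1.38 (adjusted p = 0.000818), beside the 0.33 of Lrrtm3. All its P7 values lie under the olfactory receptor level and its 6wk values just above it, so the size of this rise is uncertain. Ctnna1 differed by 0.11 (adjusted p = 0.653) and by -0.03 without P7 replicate 2, beside the -0.34 of Lrrtm2. Whether a row holds probes that read the other gene was not tested.

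Other partners of neurexins and neuroligins gave 4 falls and 0 rises among 17 measured genes, or 23.5% against 21.7% of all genes, with a median difference of -0.55. At an unadjusted limma p under 0.05 there were 11 of 17, or 64.7%, against 35.7% of all genes. This share was not particular to the list. By the same measure it was 66.7% of the 9 adhesion genes (6 of 9). It was 57.9% of the scaffold genes and 68% of the other synapse-organising adhesion genes described below. Mdga1, which binds neuroligins and keeps neurexins away from them, read 7.95, 8.03 and 7.93 in the 6wk arrays, against 9.74, 9.43 and 9.78 in the P7 arrays. Its fall of 1.68 on the log2 scale (SE 0.12, limma adjusted p = 0.000700) was well outside the spread of either age and passed whichever array was left out. Gpc4, a glypican that presents heparan sulfate to LRRTM4, differed by -1.03 (adjusted p = 0.0385), but it did not pass when P7 replicate 3 or a 6wk array was dropped (adjusted p of 0.0982 to 0.120) or after quantile normalization (-0.89, adjusted p = 0.0597). Its 6wk values and its value in P7 replicate 2 lie under the olfactory receptor level, so the size is uncertain. Nxph4, a neurexophilin, one of the secreted ligands of alpha neurexins, differed by -0.67 (adjusted p = 0.0230) and lost its call without P7 replicate 3, 6wk replicate 1 or 6wk replicate 3 (adjusted p from 0.0522 to 0.0903). The remaining call, Dag1, named after its value was seen, encodes dystroglycan, a ligand of neurexin LNS domains, and differed by -0.55 (adjusted p = 0.00485). Without P7 replicate 2 the list gave 2 rises and 4 falls among the 17 genes, where 9.56% of all genes rose and 17.2% fell. Cbln1, the cerebellin that ties neurexins to GluD2, also named with its values known, read 11.40, 11.12 and 11.15 in the 6wk arrays, against 10.98, 8.64 and 10.36 in the P7 arrays, and its difference of 1.23 did not pass (adjusted p = 0.171).

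Scaffold genes went both ways, with 3 rises and 3 falls among 19 measured genes (31.6% against 21.7% of all genes, median difference -0.18). Cask, whose protein binds the neurexin tail, fell to 9.79 ± 0.02 at 6wk, against 10.77 ± 0.10 at P7 (SD, n = 3 each), a log2 difference of -0.99 (limma adjusted p = 0.00127). Lin7a, which encodes a partner of Cask, rose by 0.76 (adjusted p = 0.0108), with its call lost without P7 replicate 3 (adjusted p = 0.0546). Dlg1 read 10.11, 10.01 and 10.01 in the 6wk arrays, against 8.99, 8.997 and 9.05 in the P7 arrays, and rose by 1.03 (adjusted p = 0.000847). Dlg1 and Dlg3 encode PDZ scaffolds of the family that binds neuroligins, and Dlg3 differed the other way, by -0.42 (adjusted p = 0.0115; 0.0521 to 0.0616 without P7 replicate 3, 6wk replicate 1 or 6wk replicate 3). Dlgap1, which binds these scaffolds, rose by 0.97 (adjusted p = 0.00171), while its relative Dlgap4 differed by -0.30 (adjusted p = 0.0379; 0.0575 to 0.141 without any array but P7 replicate 2). The Dlgap4 call also ended with array medians set equal (-0.20, adjusted p = 0.116) and after quantile normalization (-0.23, adjusted p = 0.0662). Dlg4, which encodes PSD-95 and is named here after its value was seen, differed by 0.20 and did not pass (adjusted p = 0.419).

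Among 25 measured genes of other synapse-organising adhesion proteins, 4 rose and 6 fell, or 40.0% against 21.7% of all genes, with a median difference of -0.39. Adgrl2, a latrophilin, fell to 8.90 ± 0.27 at 6wk, against 10.31 ± 0.32 at P7 (SD, n = 3 each), a log2 difference of -1.41 (limma adjusted p = 0.00556) that passed with any array left out. Ptprf, the presynaptic receptor phosphatase LAR, differed by -1.13 (adjusted p = 0.0137; 0.0575 without 6wk replicate 1 and 0.0604 without P7 replicate 3), and Flrt2, a latrophilin ligand, by -0.89 (adjusted p = 0.0389; 0.0742 to 0.127 without P7 replicate 3 or any 6wk array). The Flrt2 call also ended with array medians set equal (-0.78, adjusted p = 0.0622) and after quantile normalization (-0.80, adjusted p = 0.0674). The 6wk values of Ptprf lie under the olfactory receptor level, so its size is uncertain. Lrrc4, a netrin-G ligand, rose by 0.76 (adjusted p = 0.00351) and Ntrk3, the receptor TrkC, by 0.67 (adjusted p = 0.00268), both also with any array left out. Il1rapl1, a postsynaptic partner of receptor phosphatases, differed by 0.55 (adjusted p = 0.0341; 0.101 to 0.124 without P7 replicate 3, 6wk replicate 2 or 6wk replicate 3), at levels of 4.18 to 5.07, where olfactory receptor genes had array medians of 4.48 to 4.78. It also missed the threshold after quantile normalization (0.52, adjusted p = 0.0664). Without P7 replicate 2 the list gave 6 rises and 6 falls among the 25 genes, where 9.56% of all genes rose and 17.2% fell.

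**Figure D4:**
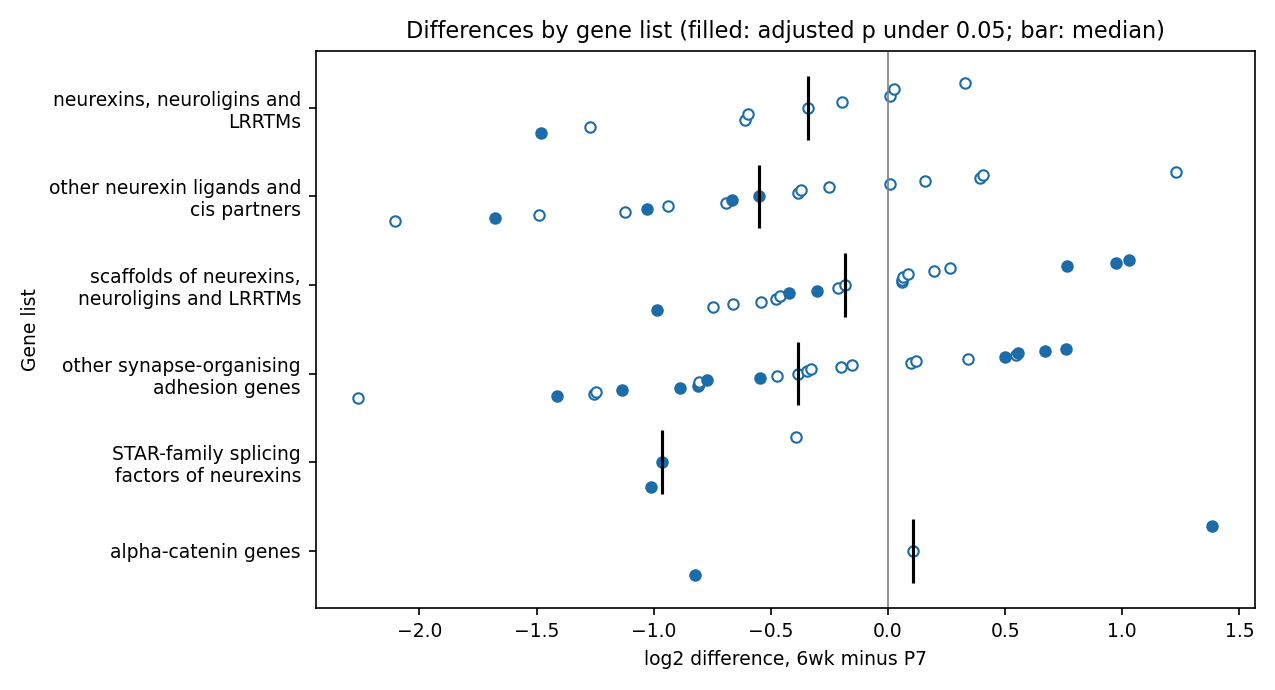
Log2 difference, 6wk minus P7 (horizontal axis), of each measured gene by list, with filled points for genes that passed the limma test and a bar at each list's median. The 9 adhesion genes have a median of -0.34 and 1 filled point, the other neurexin partners a median of -0.55 with 4 filled points on the left.

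The STAR-family proteins regulate a splice site of neurexin transcripts that sets the choice of postsynaptic partner. Khdrbs2, which encodes SLM1, fell to 7.65 ± 0.18 at 6wk, against 8.66 ± 0.20 at P7 (SD, n = 3 each), a log2 difference of -1.01 (limma adjusted p = 0.00510) that passed with any array left out. In 6wk replicate 1 it lies under the olfactory receptor level. Khdrbs3, which encodes SLM2, differed by -0.97 (adjusted p = 0.0259), and it missed the threshold without P7 replicate 3, 6wk replicate 1 or 6wk replicate 3 (adjusted p of 0.0507 to 0.0886). Khdrbs1, which encodes SAM68, read 9.01, 9.20 and 9.04 in the 6wk arrays, against 9.70, 9.17 and 9.57 in the P7 arrays. P7 replicate 2 falls among the 6wk values, and the difference of -0.39 missed the threshold (adjusted p = 0.121), but passed without that array (-0.55, adjusted p = 0.0119). Values of single neurexin exons were not analysed here.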

How the data were processed

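RNA of 6 cerebellum samples was measured on Affymetrix exon arrays. The authors deposited 1 log2 value per row and array. Per the submitters' processing notes, these involved RMA, Affymetrix Power Tools and mm9, whose versions and settings are not stated in the labels. Of 23750 rows, 18463 had 1 gene symbol in the array annotation. The row with the highest mean was kept per gene, which left 17858 genes. Names were checked by gene ID in the RefSeq table of GRCm38.p6, which held 18313 of those rows and changed 0 symbols. Row medians ran from 7.82 to 7.88 at 6wk and from 7.92 to 7.97 at P7, and the number of arrays limits the precision.

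Each gene was fitted with limma 3.58.1 (R 4.3.3; lmFit, eBayes) for 6wk minus P7, two-sided, with Benjamini-Hochberg adjustment over the 17858 genes and a threshold of 0.05. SE and 95% intervals are those of this fit. The steps were tested on simulated data. The genes and lists were chosen with earlier results of these data known. Named are the 9 genes, up to 3 called rises and 3 called falls per other list, all STAR-family and alpha-catenin genes, and the 3 genes most correlated with the member of each family that differed most. Others are marked. Listed genes with no row of their own are not analysed here. Alternatives were other scalings, a filter on dim genes, array weights, another variance model, the mean of a gene's rows, a replicate block and leaving out arrays.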

Additional observations from a re-analysis of the deposited data

How the results depend on the processing

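With 3 arrays an age, calls near the threshold depend on single arrays, and differences cannot be sized where at least 1 array lies under the olfactory receptor level. Among genes named by rule these are Lrrtm4, Gpc4, Il1rapl1, Ptprf, Khdrbs2, Ctnna1 and Ctnna3. Of the most correlated genes they are Aifm2, Cdkl4, Nptx2 and Tmem44. Of 126 member values under the alternatives, 95 kept direction and side of the threshold, 21 passed that had not, 5 no longer passed and 5 changed sign. Of 292 values of the other genes named by rule, 240 kept both, 47 no longer passed, 3 newly passed and 2 changed sign. Leaving out single arrays gave 682 to 1788 genes higher and 965 to 3073 lower at 6wk, and 0 to 1 members higher and 0 to 4 lower. In those fits the differences ran from -0.21 to 0.23 for Nrxn2, -0.069 to 0.114 for Nrxn3, -0.81 to -0.38 for Nlgn1, -0.78 to -0.42 for Nlgn3, -1.84 to -1.07 for Lrrtm1, 0.26 to 0.42 for Lrrtm3 and -1.67 to -0.91 for Lrrtm4. The pair changes ran from -0.14 to 0.12 for Nrxn2 minus Nrxn3 and from -0.028 to 0.083 for Nlgn1 minus Nlgn3. With P7 replicate 1 alone, the differences were 0.50 for Nrxn2, 0.17 for Nrxn3, -0.18 for Nlgn1, -2.4e-05 for Nlgn2 and -0.27 for Nlgn3. They were -0.77 for Lrrtm1, -0.49 for Lrrtm2, 0.15 for Lrrtm3 and -0.49 for Lrrtm4. In that fit Ctnna1 turned to -0.16 (leaving out single arrays it ran from -0.035 to 0.242). Centring on array medians and quantile normalization each called 1 member higher, Lrrtm3 (0.44 and 0.42), and lower genes made up 43.5% and 45.7% of all calls, against 61.9% as deposited. Without dim genes 3 members were lower, with Nlgn3 (-0.61) and Lrrtm2 (-0.34) added. That fit tested fewer genes and estimated the variance anew, and these 2 effects were not separated. Ctnna3 and Il1rapl1 are themselves left out by that filter. The trended, robust variance model called 3 lower, the same added Nlgn3 (-0.61) and Lrrtm2 (-0.34), and 1 higher, Lrrtm3 (0.33). The planned array weights did not converge and were not used. Weights estimated gene by gene, chosen after seeing the data, gave P7 replicate 3 a weight of 6.66 and the other P7 arrays 0.339 and 0.263, and called 3332 genes higher and 5512 lower, with 1 member higher (Lrrtm3, 0.35) and 6 lower (Nlgn1 -0.57, Nlgn2 -0.22, Nlgn3 -0.59, Lrrtm2 -0.25 and Lrrtm4 -1.24 besides Lrrtm1), while Nrxn2 turned to -0.020. Deviations of same-numbered arrays correlated at 0.27, 0.14 and -0.06, and those of differently numbered arrays at -0.28 to 0.21. Whether the replicate numbers pair the samples cannot be settled this way, because the deviations within an age are tied to each other. The share of all genes called was 21.5% after centring, 21.7% after quantile normalization, 28.5% without dim genes, 22.8% with the trended model, 49.5% with weights, 18.3% with the block, 22.6% with P7 replicate 1 alone and 9.22% to 26.8% without single arrays. The replicate block called 2 members lower, Lrrtm4 passing (-1.27, adjusted p = 0.0171) beside Lrrtm1, and 1199 genes higher and 2074 lower, while Gpc4, Nxph4, Dlgap4 and Il1rapl1 no longer passed (adjusted p = 0.0555, 0.0561, 0.0988 and 0.0725). Where a call changed, the cause was not tested unless given here.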

Other observations

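A pair of listed genes that did not pass is named after their values were seen. Their sizes are uncertain. Slitrk6 lies under the olfactory receptor level in all 3 6wk arrays and in P7 replicate 1, and Cbln2 in 2 of 3 6wk arrays. Slitrk6, a synapse-organising leucine-rich repeat protein, read 5.59, 6.85 and 6.68 in the 6wk arrays, against 7.27, 10.04 and 8.59 in the P7 arrays, a log2 difference of -2.26 (limma adjusted p = 0.0667). Cbln2, a relative of Cbln1 that also binds neurexins, read 5.98, 7.58 and 7.26 in the 6wk arrays, against 7.79, 10.17 and 9.16 in the P7 arrays, a difference of -2.10 (limma adjusted p = 0.0705). Without P7 replicate 2 the differences were -1.56 and -1.54 (adjusted p = 0.0705 and 0.105). The ages did not overlap for either gene, 6wk replicate 1 was the lowest array of all and P7 replicate 2 was the highest.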
